A study of Danio rerio with 8 samples.

Results

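The forkhead genes foxd3, foxb1a and foxi1 are described here, 3 of the 7628 named genes on a zebrafish array, each read by 1 probe set that the platform annotation gives to that gene alone. They were picked because their signals were lower in MZspg than in WT embryos in an earlier analysis of the same arrays. Their differences between the genotypes are therefore given as a description, with no test. The arrays were hybridised with total RNA of whole embryos, 120 embryos pooled per sample, in 4 groups of 2 biological replicates. These were MZspg and WT at 60% epiboly (7 hours after fertilisation) and MZspg and WT at 30% epiboly (4.7 hours), where the percentage is the part of the yolk that the spreading cell layers cover. MZspg embryos lack the maternal and the zygotic function of spg, the locus of the POU-domain factor Pou5f3, and carry the m793 allele. WT embryos were offspring of AB and TÜB parents, and the labels give no background strain for MZspg.

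Forkhead proteins are transcription factors that bind DNA through a winged-helix domain, and many of them act early in the choice between embryonic tissues. In the zebrafish, foxd3 is expressed in the early embryo and the dorsal organizer region and later specifies neural crest cells. The gene foxb1a is expressed in the neural plate and the developing brain. The gene foxi1 is expressed in ventral, non-neural ectoderm and is needed for the otic placode, from which the inner ear forms. Pou5f3 acts with SoxB1 factors and Nanog at the activation of the embryo's own genome.

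The signal of all 3 genes was high in WT and low in MZspg embryos at both stages, and in no case did the arrays of the genotypes overlap. In pooled whole embryos, fewer cells that express a forkhead gene and less transcript per cell cannot be told apart. Among all 7375 tested probe sets, 23.1% at 60% epiboly and 16.8% at 30% epiboly were lower in MZspg without overlap. Since the 3 genes were chosen on this contrast, their count cannot be read against these shares. Signals are linear intensities, and fold changes are on the scale log2(signal + 9), which understates the change of dim genes. A level of 24.6 was used to mark dim signals. It is the 95th percentile of 5319 signals whose replicate cell was left empty by the authors.

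For foxd3 the signal at 60% epiboly was 24.7 and 29.2 in MZspg, against 420.2 and 296 in WT. Both MZspg arrays lay just above the level that marks dim signals, while the WT arrays stood far over it. The means were 26.9 ± 3.16 in MZspg and 358 ± 88.1 in WT (SD, n = 2 each), a log2 fold change of -3.33 (SE 0.398), and the WT mean was 13.3 times the MZspg mean. At 30% epiboly foxd3 had 37.9 and 17.2 in MZspg, against 188 and 267 in WT. Here 1 of the 2 MZspg arrays was under the dim level. The means were 27.6 ± 14.6 in MZspg and 228 ± 55.7 in WT (SD, n = 2 each), a log2 fold change of -2.73 (SE 0.398). In the order of its levels, WT at 60% epiboly stood first and WT at 30% second without overlap, and the MZspg groups of both stages overlapped at the bottom.

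The signal of foxb1a was at the lower end of the array in MZspg. At 60% epiboly it was 23.2 and 13.6 in MZspg, against 218 and 155 in WT. At 30% epiboly it was 7.53 and 5.84 in MZspg, against 56.5 and 97.6 in WT. All 4 MZspg arrays were under the dim level and all 4 WT arrays over it, so only a bound on the difference of the means is given. This bound is the geometric mean of the brighter group over the dim level, and it leaves out the spread of the brighter group. By it foxb1a was at least 7.48-fold lower in MZspg at 60% epiboly and at least 3.02-fold lower at 30% epiboly. The same holds for every later fold given as at least. The fitted log2 fold changes were -2.84 and -2.42 at 60% and 30% epiboly (SE 0.388 each). These values, unlike the bounds, depend on the pseudocount. The 4 groups did not overlap and stood in the order WT at 60%, WT at 30%, MZspg at 60% and MZspg at 30% epiboly.

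For foxi1 the difference was smaller at 30% than at 60% epiboly, and the MZspg arrays of the earlier stage disagreed. At 60% epiboly its signal was 30.3 and 33.4 in MZspg, a little above the dim level, against 193 and 180 in WT. The means were 31.9 ± 2.22 in MZspg and 186 ± 9.34 in WT (SD, n = 2 each), a log2 fold change of -2.26 (SE 0.412), with replicates close together in both genotypes. At 30% epiboly foxi1 had 12.6 and 39.8 in MZspg, against 76.8 and 65.8 in WT. Replicate 1 of MZspg was under the dim level at that stage. The means were 26.2 ± 19.2 in MZspg and 71.3 ± 7.79 in WT (SD, n = 2 each), a log2 fold change of -1.30 (SE 0.412). That value rested on which MZspg array was used: with replicate 1 as the only MZspg array of 30% epiboly it was -1.89, and with replicate 2 alone it was -0.72. WT at 60% stood above WT at 30% epiboly, and both stood above the MZspg groups, which overlapped.

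**Figure D1:**
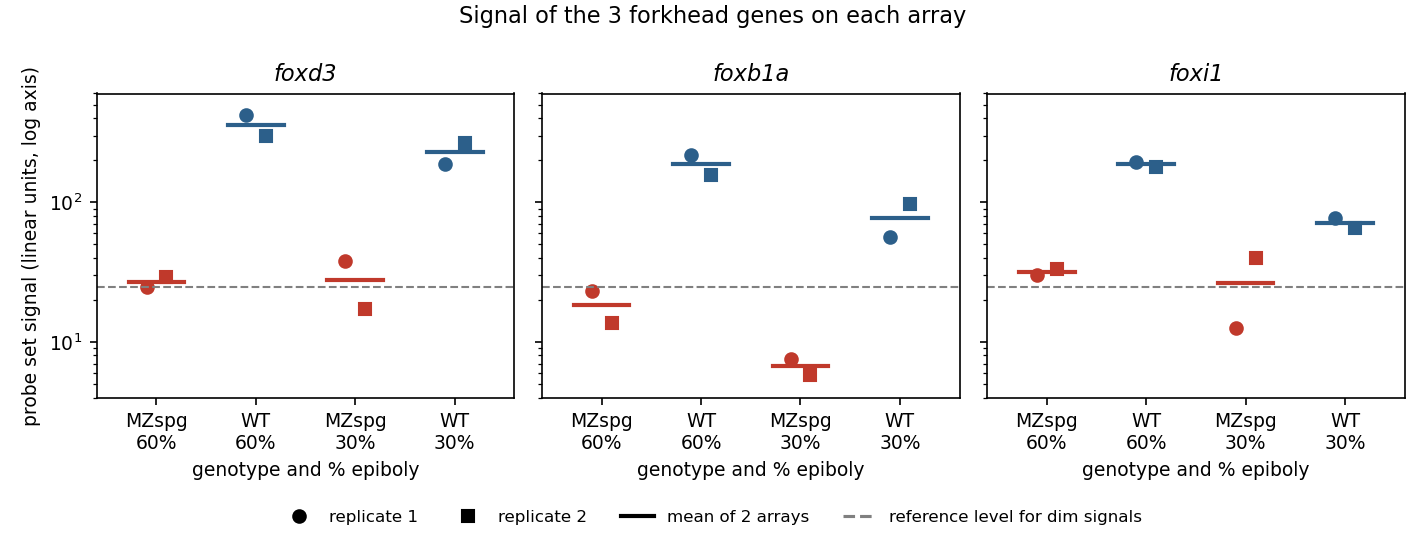
Signal of foxd3, foxb1a and foxi1 on each array (log axis), with MZspg in red and WT in blue, circles for replicate 1, squares for replicate 2 and bars for the mean of 2 arrays. The dashed line is the level of 24.6 that marks dim signals. Every MZspg point lies under both WT points of its stage, and all 4 MZspg points of foxb1a lie under the dashed line.

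Each gene was also placed by its rank among the signals of its own array. The filled cells of every array shared a common distribution, so these percentiles restate the signals on another scale. They are given as a description and are no separate check of the difference or of the scaling between arrays. At 60% epiboly foxd3 was at percentile 30.0 and 33.4 in MZspg, against 85.4 and 79.8 in WT. At 30% epiboly it was at percentile 38.4 and 23.0 in MZspg, against 71.4 and 77.9 in WT. For foxb1a the percentiles at 60% epiboly were 28.8 and 18.7 in MZspg, against 74.1 and 67.6 in WT. At 30% epiboly foxb1a was among the dimmest signals in MZspg, at percentile 8.37 and 4.69, against 46.4 and 57.9 in WT. For foxi1 the percentiles were 34.1 and 36.1 in MZspg, against 71.8 and 70.5 in WT, at 60% epiboly. At 30% epiboly they were 17.4 and 39.4 in MZspg, against 52.8 and 49.6 in WT. In each gene and stage the WT arrays ranked above both MZspg arrays, as their signals require.

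Spike-in controls were higher on replicate 2 of MZspg and of WT at 60% epiboly (geometric means 805 and 641) than on the other 6 arrays (89.6 to 211). As each set held 1 array of each genotype at 60% epiboly, the difference could be taken within it. For foxd3 it was -3.0 between the arrays with high and -3.67 between those with low spike-in signal, on the log2 scale. For foxb1a the difference was -2.86 between the high and -2.82 between the low arrays, and for foxi1 -2.15 and -2.36 in the same order. As the genotypes did not overlap in any of the 3 genes, the difference had to be negative in both sets. Only its size could vary, and an effect of the spike-in set was not tested by this.

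The transcript of pou5f3 itself had a signal of 1268 and 891 in MZspg, against 2957 and 2214 in WT, at 60% epiboly. At 30% epiboly it was 1292 and 1327 in MZspg, against 2850 and 3166 in WT. It was lower in MZspg on all arrays, and the sources used here do not say whether its probe set lies up- or downstream of the m793 mutation. Summed markers of other cell pools differed between the genotypes without overlap at 60% epiboly, but not in every list at 30% epiboly. Their part in the results was not tested. A sum rests mostly on its brightest genes, and not every gene followed it. At 60% epiboly krt4, krt5 and krt8 of the enveloping layer were lower in MZspg. There cldnf had 131.8 and 99.85 in MZspg, against 23.02 and 7.078 in WT. In the yolk syncytial list apoa1a, apoa2, apobb.1, fabp1b.1, hnf4a and slc26a1 were higher in MZspg without overlap at that stage, while gata5 and mxtx2 overlapped. The summed signal of 9 enveloping layer genes, of which 0 were empty on both arrays of any group, was 7583 and 9573 in MZspg, against 13408 and 10929 in WT, at 60% epiboly. At 30% epiboly the same sum was 6318 and 2798 in MZspg, against 6470 and 8524 in WT. The sum of 8 yolk syncytial layer genes was 1283 and 3010 in MZspg, against 828 and 754 in WT, at 60% epiboly, and 542 and 427 in MZspg, against 406 and 375 in WT, at 30% epiboly. In that list fabp1b.1 was empty on all arrays of 30% epiboly, and apoa2 on both WT arrays of that stage. The sum of 5 germ plasm genes was 582 and 415 in MZspg, against 991 and 1098 in WT, at 60% epiboly, and 1188 and 1386 in MZspg, against 1350 and 1416 in WT, at 30% epiboly. The sum of 6 maternal transcripts was 888 and 982 in MZspg, against 756 and 870 in WT, at 60% epiboly. It overlapped between the genotypes at 30% epiboly. Of its genes at 60% epiboly, org was higher in MZspg, with 153.8 and 386.8, against 138.2 and 150 in WT. In contrast, cldnd was lower in MZspg, with 91.41 and 142.2, against 182.5 and 228 in WT. The other maternal transcripts overlapped at that stage.

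The 3 genes were not chosen on the comparison of stages. This comparison was tested with a model fitted to all 7375 probe sets in limma and Benjamini-Hochberg adjustment. It uses the same arrays as the choice, however, and the 3 genes reached the filter level of 41.0 on WT arrays only. Their adjusted p is therefore not free of the choice. None of the 3 passed the threshold of an adjusted p under 0.05 in either genotype. In MZspg 32.6% of all probe sets passed it (13.9% higher and 18.8% lower at 60% epiboly), and in WT 13.7% (5.6% higher and 8.14% lower).

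In WT the signal of all 3 genes was higher at 60% than at 30% epiboly without overlap, as were 28.4% of all probe sets. For foxi1 the log2 fold change from stage to stage in WT was 1.28 (SE 0.412, adjusted p = 0.0591), and for foxb1a it was 1.21 (SE 0.388, adjusted p = 0.0591). Neither passed, and the adjusted p moved both ways with the settings. With no filter it was 0.107 for foxb1a and 0.117 for foxi1. Without WT replicate 1 of 30% epiboly the log2 fold change was 0.86 for foxb1a and 1.38 for foxi1. That fit holds a single WT array of the stage and called far fewer probe sets over the whole array, so its calls are not read for these genes. Both passed with a pseudocount of 32 or with arrays centred on their medians (adjusted p between 0.0282 and 0.0417). Further passes were that of foxb1a with the spike-in set as a term (adjusted p = 0.0468) and those of foxi1 with the WT arrays alone or without either MZspg array of 30% epiboly (0.0339 to 0.0345). For foxd3 the change in WT was 0.63 (SE 0.398, adjusted p = 0.306), and it passed under no setting run.

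In MZspg the stage difference was 0.03 for foxd3 (adjusted p = 0.96) and 0.33 for foxi1 (adjusted p = 0.564), and the arrays of the stages overlapped in both genes. For foxb1a in MZspg the signals of 60% epiboly were the higher ones without overlap, as in 29.9% of all probe sets, but lay under the dim level at both stages, so no fold is given (adjusted p = 0.14). The test of whether the stage difference depended on genotype, the interaction of both, did not pass. Its estimate was -0.60 for foxd3 (SE 0.563, adjusted p = 0.827) and -0.95 for foxi1 (SE 0.583, adjusted p = 0.726). For foxb1a the adjusted p was 0.874, and the estimate depended on the pseudocount, being close to 0 with a pseudocount of 1. The interaction is made from the contrasts on which the genes were chosen. In it 0.0% of all probe sets passed in limma, and 638 had an unadjusted p under 0.05. The stages are therefore not shown to differ in the effect of the genotype on any of the 3 genes.

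The other forkhead genes of the array give the setting in which the 3 genes stand. Of 20 other forkhead genes 15 were bright enough to be tested, each taken by its brightest probe set. At 60% epiboly 1 of the 15 rose and 0 fell in MZspg, where 2.28% of all probe sets rose and 2.24% fell (4.52% in all), and their median log2 fold change was 0.28 against 0.01 over all probe sets. At 30% epiboly 0 passed in either direction, where 1.68% of all probe sets did (0.407% higher and 1.27% lower), and none of the 15 had a log2 fold change below -0.26 or above 0.50. At 60% epiboly foxo3a was under the dim level on both MZspg arrays, at least 1.44-fold lower than in WT, and did not pass (adjusted p = 0.103). Its WT signals were 47.2 and 26.6, the second close to that level.

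The gene that rose was foxp2, a forkhead gene best known from nervous system development in mammals. Its signal at 60% epiboly was 193 and 259 in MZspg, against 79.3 and 49.7 in WT, which is 1.69 on the log2 scale (SE 0.369, adjusted p = 0.0241 in limma). Leaving out any 1 of the 4 WT arrays, or replicate 2 of MZspg at 60% epiboly, ended this call. The value for foxp2 ran from 1.40 to 1.99 when single arrays were dropped. The call was also lost in limma with no filter (adjusted p = 0.0557) and with the arrays of 60% epiboly alone (adjusted p = 0.112). It was lost as well without both arrays of high spike-in signal, where the value fell to 1.19. The gene foxj3 had 79.9 and 90.0 in MZspg, against 26.7 and 27.1 in WT, and did not pass (log2 fold change 1.39, adjusted p = 0.0512). The gene foxd5, of the same class as foxd3, was bright on every array. Its log2 fold change was -0.07 at 60% and -0.15 at 30% epiboly (SE 0.514 each). At 30% epiboly its MZspg arrays disagreed, with 1080 and 278.5, and lay on either side of the 496 and 754 in WT.

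The paralog of foxb1a, foxb1b, was too dim to be tested, with 12.0 and an empty cell in MZspg, against 10.5 and an empty cell in WT, at 60% epiboly. At 30% epiboly it had 3.56 and an empty cell in MZspg, against 10.9 and 7.98 in WT, so no difference of foxb1b was detectable on this array. For foxh1, the forkhead partner of Smad proteins in Nodal signalling and chosen here after its values were seen, both probe sets were tested and disagreed. At 60% epiboly the brighter differed by -0.08 on the log2 scale (adjusted p = 0.915 in limma) and the dimmer by -1.02 (adjusted p = 0.111). The dimmer had 117 and 80.8 in MZspg, against 227 and 188 in WT. At 30% epiboly the brighter differed by 0.07 (adjusted p = 0.995) and the dimmer by -0.47 (adjusted p = 0.833). The dimmer thus lay outside the range given above for the brightest probe sets.

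**Figure D2:**
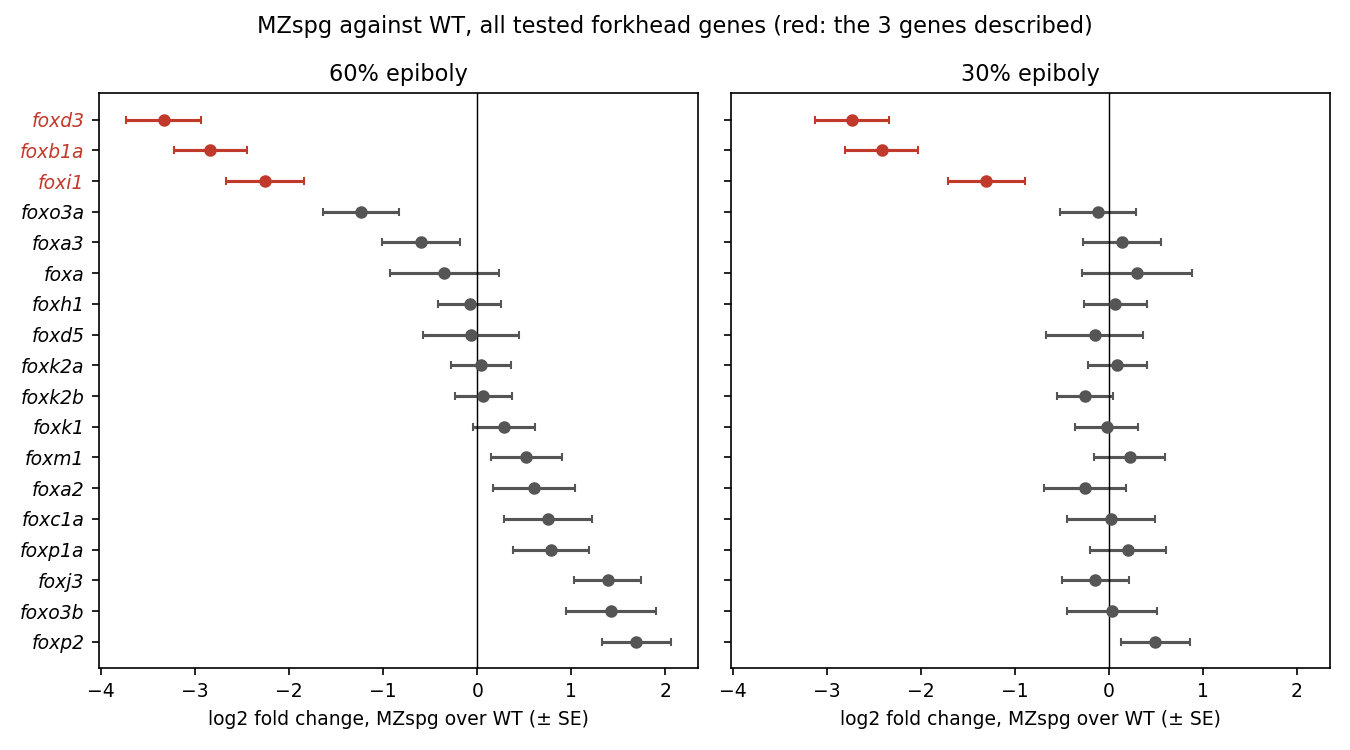
Log2 fold change of MZspg over WT (points, with SE as bars) at 60% and 30% epiboly for the 18 tested forkhead genes, ordered by the value at 60% epiboly. The 3 genes described, in red, were chosen for this contrast. The fitted values of the other 15 lie between -1.23 (foxo3a, dim in MZspg) and 1.69 at 60% epiboly and between -0.26 and 0.50 at 30% epiboly.

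Between the stages, some of the other forkhead genes passed the test. The gene foxc1a, which acts in paraxial mesoderm, rose at 60% epiboly in MZspg (adjusted p = 0.00117) and in WT (adjusted p = 0.0107). It was under the dim level or empty on all arrays of 30% epiboly, so that it was at least 7.74-fold higher in MZspg and at least 4.43-fold higher in WT. The gene foxa2, of axial mesoderm and endoderm, rose as well, by 2.52 on the log2 scale in MZspg (adjusted p = 0.00234) and by 1.66 in WT (adjusted p = 0.0305). In MZspg foxj3, dim at 30% epiboly, was at least 3.44-fold higher at 60% (adjusted p = 0.00126), and foxp2 rose by 1.83 (adjusted p = 0.00454). The gene foxo3a fell in MZspg to signals under the dim level, at least 3.64-fold lower at 60% epiboly (adjusted p = 0.00215). These 5 calls in MZspg held whichever array was left out, although that of foxp2 was lost without both arrays of high spike-in signal. The gene foxj3 reached the filter level only on the MZspg arrays of 60% epiboly. In WT the call of foxa2 was lost without any one of the 4 WT arrays and that of foxc1a without WT replicate 1 of either stage. Such fits hold a single WT array of a stage and called far fewer probe sets over the whole array. Both WT calls were also lost in limma with all arrays kept and no filter (adjusted p = 0.0798 for foxa2 and 0.051 for foxc1a). That of foxa2 was lost as well with the spike-in set as a term (adjusted p = 0.0516) and without both arrays of high spike-in signal. In all, 4 of the 15 rose and 1 fell in MZspg, where 13.9% of all probe sets rose and 18.8% fell. In WT 2 of the 15 rose and 0 fell, where 5.6% of all probe sets rose and 8.14% fell.

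**Figure D3:**
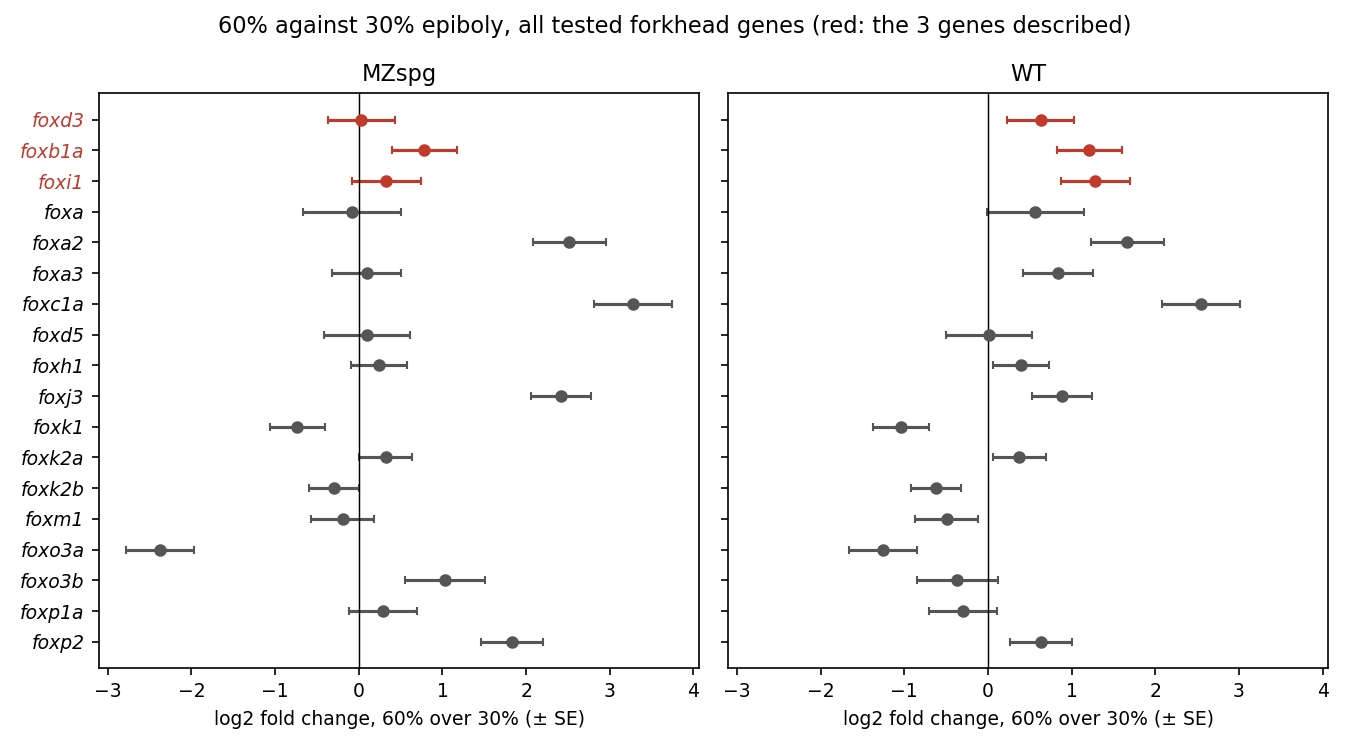
Log2 fold change of 60% over 30% epiboly (points, with SE as bars) in MZspg and in WT for the 18 tested forkhead genes, with the 3 genes described in red at the top. In WT foxb1a and foxi1 lie at 1.21 and 1.28, and in MZspg foxd3 lies at 0.03. Points of genes that are dim at a stage, as foxc1a is at 30% epiboly in both genotypes and foxb1a at both stages in MZspg, are fitted values that depend on the pseudocount.

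Genes of tissues in which the 3 forkhead genes act, at these or later stages, were taken from lists, each gene by its brightest probe set. The lists were chosen with earlier results of these data known. Their counts can therefore not be read against the shares of all probe sets, which are given as background only. Of 23 genes known from the neural crest, a later setting of foxd3, 15 were on the array and 10 were tested. The list does not show that neural crest cells were present at these stages. In MZspg 1 rose and 3 fell at 60% epiboly, where 2.28% of all probe sets rose and 2.24% fell. The median log2 fold change of the list was -0.47. The Snail-type repressor snai2 had 6.26 and 6.19 in MZspg, against 250 and 228 in WT, at least 9.69-fold lower (adjusted p = 0.000192). At 30% epiboly snai2 fell as well, at least 21.9-fold lower in MZspg (adjusted p = 6.13e-05), while the homeobox gene msx3 rose, and the median of the list was -0.26. Of all probe sets 0.407% rose and 1.27% fell at 30% epiboly. The gene msx3 had 154 and 104 in MZspg, against 26.4 and 17.8 in WT, at 60% epiboly (log2 fold change 2.14, adjusted p = 0.0105). Its 60% call was lost without WT replicate 2 of that stage and without both arrays of high spike-in signal. In limma it was also lost with the arrays of 60% epiboly alone (adjusted p = 0.0787). The 30% call of msx3 was lost without any one array of 30% epiboly, and in limma with no filter (adjusted p = 0.0835).

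Of 24 genes of non-neural ectoderm and the preplacodal region, the setting of foxi1, 19 were on the array and 10 were tested. At 60% epiboly 0 rose and 3 fell, where the same 2.28% and 2.24% of all probe sets did. The median of the list was -1.11, against 0.01 over all probe sets. The AP-2 gene tfap2a had 157 and 264 in MZspg, against 671 and 775 in WT (log2 fold change -1.78, adjusted p = 0.0126). Its relative tfap2c was at least 3.14-fold lower in MZspg (adjusted p = 0.00812), and the GATA factor gene gata2a had 103 and 180 in MZspg, against 464 and 759 in WT (-2.05, adjusted p = 0.0116). Both AP-2 genes are also among the 3 neural crest genes that fell. The gene tfap2c reached the filter level only on the WT arrays of 60% epiboly. At 30% epiboly klf2b alone fell in this list, at least 5.39-fold lower in MZspg (adjusted p = 0.0128), and the median was -0.87. Of all probe sets 0.407% rose and 1.27% fell at that stage. The call of klf2b was lost without any one array of 30% epiboly (highest adjusted p = 0.205), that of gata2a without WT replicate 2 of 60% epiboly (0.0953) and that of tfap2a without either WT array of that stage (0.0864). With the arrays of 60% epiboly alone the calls of tfap2a, tfap2c and gata2a were all lost (adjusted p = 0.087, 0.0838 and 0.0876), and without both arrays of high spike-in signal those of tfap2a (0.109) and gata2a (0.126).

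Of 32 neural plate genes, the setting of foxb1a, 29 were on the array and 16 were tested. At 60% epiboly 3 rose and 2 fell, where 2.28% of all probe sets rose and 2.24% fell. The SoxB1 gene sox2 was at least 7.52-fold lower in MZspg (adjusted p = 0.00182). The repressor gene her3 was empty on both MZspg arrays, against 125 and 88.3 in WT, at least 4.26-fold lower (adjusted p = 0.00154). In the other direction, the eye and brain gene pax6a had 91.0 and 85.0 in MZspg and was empty on both WT arrays, at least 3.57-fold higher (adjusted p = 0.00193). The head patterning gene otx2b had 799 and 705 in MZspg, against 102 and 93.6 in WT (log2 fold change 2.83, adjusted p = 0.00913). The remaining one that rose, named after its value was seen, was her9 (2.48, adjusted p = 0.0126). At 30% epiboly 0 rose and sox11a alone fell, with 78.9 and 49.3 in MZspg, against 888 and 696 in WT (-3.47, adjusted p = 0.000448). Of all probe sets 0.407% rose and 1.27% fell at 30% epiboly. The medians of this list were -0.39 at 60% and -0.35 at 30% epiboly. The calls of otx2b and her9 were lost without replicate 2 of either genotype at 60% epiboly. In limma that of her9 was also lost with no filter (adjusted p = 0.0545) and with the arrays of 60% epiboly alone (0.0876). Those of sox2, her3, pax6a and sox11a held whichever single array was left out. However, her3 was empty on all MZspg arrays, pax6a on all WT arrays and sox2 on all MZspg arrays but replicate 2 of 60% epiboly. Empty cells took 1 fill value and show no spread, so the adjusted p of these genes and its stability rest partly on the fill. They also passed the filter only through arrays where they were high, her3 and sox2 on WT arrays and pax6a on MZspg arrays of 60% epiboly. None of them passed the filter at 4 arrays, so their calls are not free of the filter. Without both arrays of high spike-in signal the calls of sox2 (adjusted p = 0.0647), otx2b (0.198) and her9 (0.293) were lost.

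Of 13 genes of the dorsal organizer and axial mesoderm, where foxd3 is expressed early, 10 were tested and 0 passed at either stage. Among all probe sets 4.52% passed at 60% and 1.68% at 30% epiboly, so a count of 0 among 10 genes says little. The median of the list was -0.36 at 60% and 0.05 at 30% epiboly. Between the stages, the shares of all probe sets that rose and fell were 13.9% and 18.8% in MZspg and 5.6% and 8.14% in WT, so that counts of the lists cannot be set between the genotypes without them. In MZspg 3 of 10 neural crest genes rose and 0 fell, 2 of 10 non-neural genes rose and 1 fell, 7 of 16 neural plate genes rose and 3 fell, and 2 of 10 organizer genes rose and 0 fell. In WT 1 neural crest gene rose and 1 fell, 2 non-neural genes rose and 1 fell, 6 neural plate genes rose and 1 fell, and 1 organizer gene rose and 0 fell.

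The genes whose pattern was most like that of each forkhead gene were found among 5011 other named genes with a value on all arrays. Likeness was the root mean square difference over the 8 arrays between profiles of log2(signal + 9), each centred on its own mean. For foxd3 the nearest gene was mych, of the Myc family, at a difference of 0.40 log2 units. Its signal at 60% epiboly was 33.7 and 44.8 in MZspg, against 376 and 262 in WT, and at 30% epiboly 22.5 and 21.2 in MZspg, against 311 and 380 in WT. The second was foxb1a itself, at 0.46, followed by shmt2, a mitochondrial enzyme gene of serine and glycine metabolism, at 0.50.

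For foxb1a the nearest gene was gpd1b, a glycerol-3-phosphate dehydrogenase gene, at 0.44. It had 84.8 and 29.0 in MZspg, against 486 and 348 in WT, at 60% epiboly, and 26.8 and 18.9 in MZspg, against 288 and 182 in WT, at 30% epiboly. The gene foxd3 was second, at 0.46, and septin12, of the septin family of cytoskeletal proteins, was next, at 0.47. So foxd3 and foxb1a each stood in the second place for the other. The gene foxi1 was less like them, at 0.63 from foxb1a and 0.87 from foxd3. On these distances it took place 11 for foxb1a and place 26 for foxd3. From the side of foxi1, foxb1a took place 30 and foxd3 place 204.

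For foxi1 the nearest were si:ch73-55i23.1, at 0.38, which was read by a probe set of the kind that can share probes with other transcripts, and zgc:194207, at 0.41. The third was tfap2a, at 0.47, a gene that like foxi1 is known from non-neural ectoderm. At 30% epiboly tfap2a had 187 and 153 in MZspg, against 353 and 422 in WT, so that its order of groups was that of foxi1 but for the MZspg stages, which overlapped in both genes. Likeness over 8 arrays of 4 groups rests mostly on the genotype contrast that chose the genes, and no test was made of it.

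**Figure D4:**
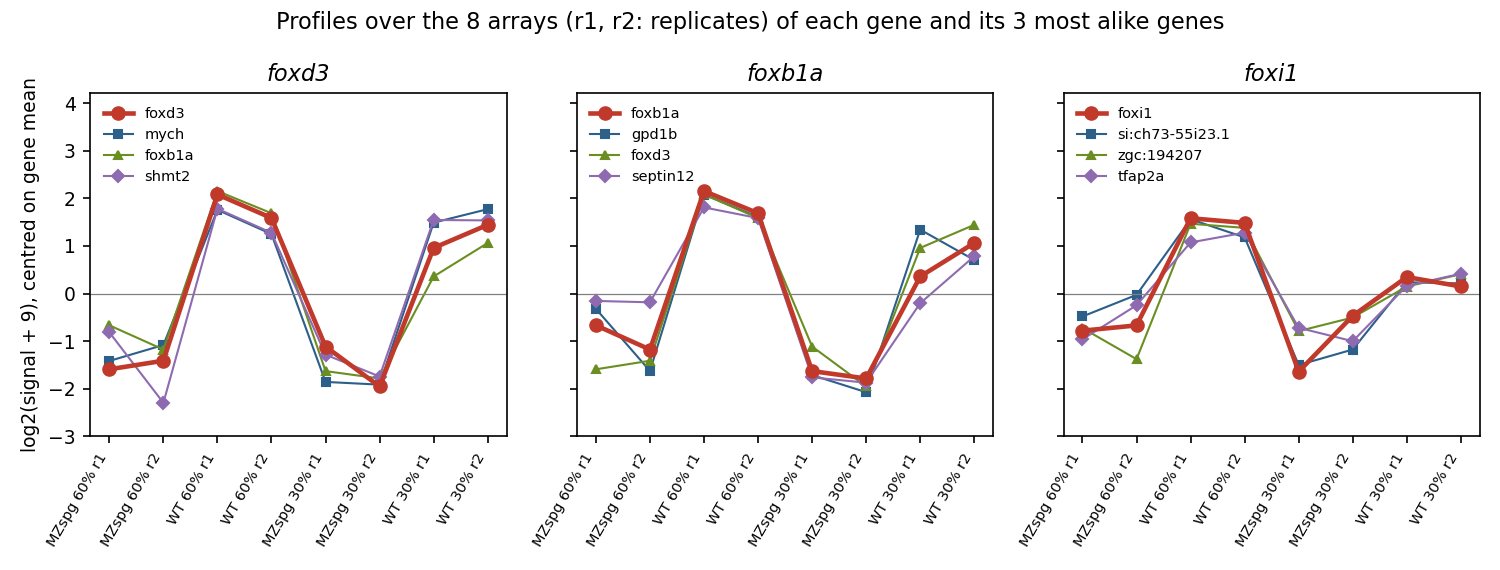
Profiles of log2(signal + 9) over the 8 arrays, centred on the mean of each gene, for foxd3, foxb1a and foxi1 (red) and the 3 genes most like each. In every panel the lines lie below 0 on the MZspg arrays and high on the WT arrays of 60% epiboly. In the panel of foxi1 the WT arrays of 30% epiboly lie close to 0, below those of 60% epiboly.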

How the data were processed

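Each of 8 arrays came with deposited linear intensities for 12477 probe sets, for which the submitters' processing notes name MAS5. Filled cells of every array had 1 common distribution, as after quantile normalisation, and 17.3% of cells were empty by a rule not given in the sources used here. The arrays held 9680 to 10608 filled cells, and their number limits the precision. Tests used the 7375 probe sets, without 30 controls, that reached 41.0 (the 40th percentile) on 2 or more arrays. A gene dim in 1 genotype could pass this filter through the other, as snai2 did on WT arrays only and msx3 on MZspg arrays only. An empty cell took the value 8.35, the 10th percentile (1.22% of tested cells). Group means of log2(deposited value + 9) were fitted with limma 3.58.1 in R 4.3.3 (lmFit, eBayes with trend, two-sided, 4 residual and 7.67 prior degrees of freedom), and tested on simulated data. Of 12447 probe sets 9206 had 1 symbol, 104 several and 3137 none. Symbols were looked up by gene ID in the RefSeq table of GRCz12tu (9138 found, 0 updated). Its coordinates were not used, since no build is named.

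Named were the 3 genes, pou5f3, called forkhead genes, up to 4 called genes per list and genotype comparison, and the 3 genes most like each. The members, lists and the rule were chosen with earlier results of these data known. The alternatives were the pseudocount, filter, empty cells, scaling, arrays fitted, replicate number and spike-in set as terms, and each array left out.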

Additional observations from a re-analysis of the deposited data

How the results depend on the processing

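The differences of foxd3, foxb1a and foxi1 between MZspg and WT kept their sign under every alternative run. The genes were chosen on this contrast and their arrays did not overlap. Leaving out an array or changing the pseudocount or filter could therefore not turn the sign, and only the sizes are informative. With a pseudocount of 32 the log2 fold changes at 60% epiboly were -2.71 for foxd3, -2.11 for foxb1a and -1.77 for foxi1, and at 30% epiboly -2.13, -1.47 and -0.87 in the same order. With a pseudocount of 1 foxb1a had -3.30 at both stages. With 1 array left out they ran from -3.15 to -2.31 for foxd3 and from -1.89 to -0.72 for foxi1 at 30% epiboly. The stage difference in WT passed for foxb1a with a pseudocount of 32 (1.01), centred arrays (1.30) or the spike-in set as a term (1.45). For foxi1 it passed with a pseudocount of 32 (1.08), centred arrays (1.38) or the WT arrays alone (1.28), and ran from 1.19 to 1.38 with 1 array left out.

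The number of probe sets called over the whole array depended more on the settings. At 60% epiboly 333 were called between genotypes, but 154 with a filter at 4 arrays, 216 over values on all arrays, 65 with the arrays of the stage alone, 615 with the spike-in set as a term, 32 without both arrays of high spike-in signal, and 119 to 757 with 1 array left out. At 30% epiboly 124 were called, 31 with no filter, 67 with the arrays of the stage alone, 76 without both arrays of high spike-in signal, and 22 to 120 with 1 left out. Between stages 1013 were called in WT, but 211 with no filter, 655 with the spike-in term, 110 without both high arrays, and 0 to 1196 with 1 left out. In MZspg 2405 were called, 1429 with its arrays alone, 688 without both high arrays, and 791 to 2467 with 1 left out. The interaction had 0 calls in limma and up to 54 with 1 left out. Leaving out both high arrays and the crossed numbers were chosen after the data were seen.

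Replicate numbers were not shown to pair the samples: differences between replicates correlated at 0.078 between the genotypes at 60% and at -0.143 at 30% epiboly, and between the stages at -0.13 in MZspg and -0.333 in WT. With the replicate block 301 and 113 probe sets were called between genotypes at 60% and 30% epiboly, and 2203 and 825 between stages in MZspg and WT. With the numbers of MZspg at 30% epiboly crossed the counts were 378, 117, 2396 and 1105. With those of WT at 30% epiboly crossed they were 476, 139, 2564 and 1208, and the WT stage differences of foxb1a (1.21, adjusted p = 0.037) and foxi1 (1.28, 0.0461) passed in limma. The causes of these changes were not tested.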
